A study of Homo sapiens with 4 samples.

Results

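Iron uptake, storage and the control of hepcidin were examined in 4 human hepatoma cultures through 10 genes. They were TF (transferrin), TFRC and TFR2 (transferrin receptors), FTH1 and FTL (ferritin subunits), SLC40A1 (ferroportin), HAMP (hepcidin), HFE, HFE2 (hemojuvelin) and IREB2 (iron regulatory protein 2). They were taken by symbol from read counts per gene, as 10 of 16370 genes, and all 10 were found. Of these, 9 are described in both parental lines, and HAMP only in Huh7 and Huh7-C, where it was listed. The hepatoma lines Hep3B and Huh7 are long-established cell lines, called hepatocellular carcinoma cells (HCC) here. Hep3B-C and Huh7-C are the stem-like cultures grown from them, called hepatic cancer stem cells (HCSC). No treatment, time or genotype was given in the labels for any culture, and all 4 were of hepatoma origin, with no normal liver cells for comparison. With 1 library for each cell line, a group consisted of 2 samples of different parental origin, and HCSC were compared with the HCC from which they came.

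Iron circulates bound to transferrin, which hepatocytes secrete. Cells take it up through the receptor encoded by TFRC, store it in ferritin shells made of heavy (FTH1) and light (FTL) chains, and release it through ferroportin, the only known iron exporter. The liver sets the iron supply of the body by secreting hepcidin, which blocks and degrades ferroportin. Hepatocytes adjust hepcidin through HFE, TFR2 and hemojuvelin, a co-receptor for bone morphogenetic proteins (BMP) that act through SMAD factors, and through interleukin 6 and STAT3. Inside the cell the iron regulatory proteins bind hairpins in mRNAs, the iron-responsive elements. Binding in a 5′ untranslated region (UTR) holds back translation, and binding in the 3′ UTR of TFRC keeps that mRNA from being degraded.

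The hairpins are shown first, and 4 of the 10 genes held them. These 4 are among the mRNAs with a known iron-responsive element, so their hits were foreseen and are no independent result. A pattern was searched in 1 transcript per gene of GENCODE release 29 (GRCh38), namely an unpaired C, 5 paired bases on each side of the loop CAGTGN and at least 3 of 5 pairs below the C, with G-T pairs allowed. It was found in 38 of 16031 transcripts (0.237%). Among the iron genes it stood once in exon 1, in the 5′ UTR, of FTH1, FTL and SLC40A1, and 4 times in exon 19, in the 3′ UTR, of TFRC. Each site is 27 bases long, is written 5′ to 3′ along the transcript, and has the loop in capitals.
FTH1 at chr11:61967575-61967601, minus strand: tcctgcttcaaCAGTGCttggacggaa
FTL at chr19:48965336-48965362, plus strand: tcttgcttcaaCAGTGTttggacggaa
SLC40A1 at chr2:189580662-189580688, minus strand: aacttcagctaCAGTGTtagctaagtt
TFRC at chr3:196050980-196051006, minus strand: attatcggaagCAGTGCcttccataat
TFRC at chr3:196050576-196050602, minus strand: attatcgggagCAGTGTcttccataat
TFRC at chr3:196050511-196050537, minus strand: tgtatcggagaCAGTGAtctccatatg
TFRC at chr3:196050464-196050490, minus strand: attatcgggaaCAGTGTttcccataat

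The sites of FTH1 and FTL had the same base at 25 of 27 positions. These are matches of a pattern in the reference, and no binding was measured. The transcript searched for TF covered 999 bases of a gene listed at 2318 bases, so that TF was searched in part.

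Depth was lowest in Hep3B, with total gene counts from 2896418 (Hep3B) to 4641927 (Hep3B-C), and 3 counts, taken as the smallest level a library could show, stood at 0.646 to 1.04 CPM (counts scaled to a common library total). Levels below are CPM, with 95% exact Poisson intervals that cover counting error only. Within a pair, genes were tested with the Audic-Claverie test of a pair of counts. A change was called where the FDR did not exceed 0.01 and the log2 fold-change (HCSC/HCC, 0.5 added to each count) was at least 1 in size. This test compares 2 libraries, its errors are counting errors, and no call has a replicate check. In the Hep3B pair 13.2% of all genes were called up and 30.4% down, and in the Huh7 pair 4.19% and 4.15%. Beside this background, 2 of the 9 iron genes were up-regulated in Hep3B-C (FTL and TFR2) and 3 were down-regulated (TF, TFRC and IREB2). In Huh7-C 0 of 10 were up-regulated and 3 were down-regulated (TF, TFR2 and SLC40A1). With library sizes normalized by TMM, the median log2 fold-change of all genes in the Hep3B pair moved from -0.60 to -0.12. The calls of that pair moved from 2043 up and 4708 down to 3056 up and 3134 down, and those of the iron genes from 2 up and 3 down to 2 up and 1 down. With an assumed biological coefficient of variation of 0.4 between libraries, 0 iron genes were called in either pair, and over all genes 62 were up and 169 down in the Hep3B pair and 13 up and 12 down in the Huh7 pair.

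**Figure D1:**
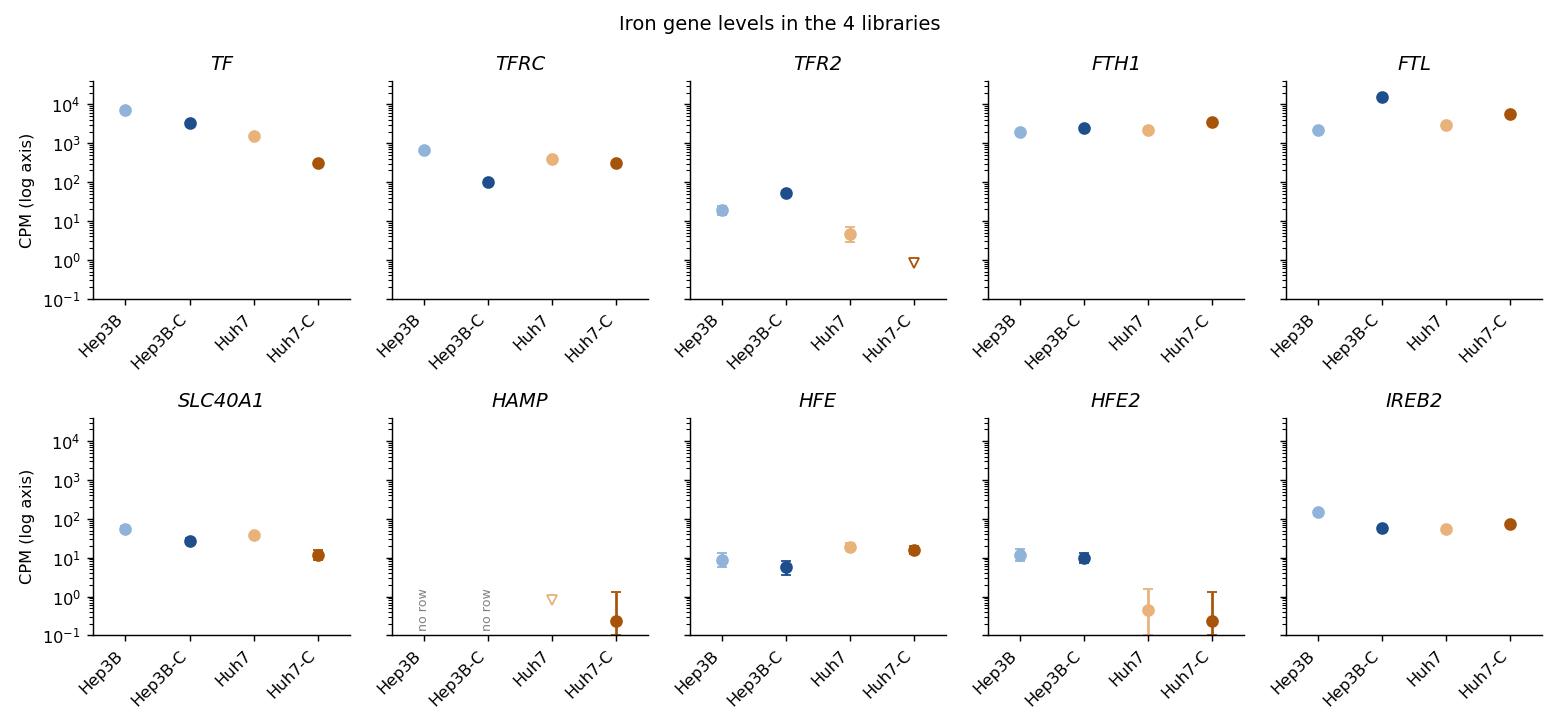
Level of each iron gene in CPM (log axis) in the 4 libraries, with points for the measured level, bars for 95% exact Poisson intervals and open triangles for the upper limit where the count was 0. FTL stands highest in Hep3B-C, TF is lower in the HCSC library of each pair, and HAMP is at 0 or 1 count in the Huh7 pair.

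TF, the circulating iron carrier (Entrez 7018, chr3:133745956-133796640, plus strand), was lower in the HCSC of both lines. It stood at 7216 CPM in Hep3B, where it ranked 7 of 15480 genes by count, and at 3347 CPM in Hep3B-C. In Huh7 it stood at 1547 CPM and in Huh7-C at 319 CPM. The 4 libraries thus lay in the order Hep3B, Hep3B-C, Huh7 and Huh7-C, with no overlap between the intervals of neighbours. In Hep3B-C TF fell 2.16-fold, with a log2 fold-change of -1.11 (SE 0.015), and in Huh7-C 4.84-fold, at -2.28 (SE 0.042), both with an FDR of 1e-300, the smallest value kept. Of the 9 iron genes in both pairs, only TF was called in the same direction in both. Of all 13917 genes in both pairs, 1.49% were called down and 0.568% up in both. The fall in Hep3B-C lost its call with TMM, at a log2 fold-change of -0.63, while that in Huh7-C remained at -2.32.

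TFRC, the receptor that takes up transferrin in most cells (Entrez 7037, chr3:196027183-196082189, minus strand), was found at 667 CPM in Hep3B and 102.5 CPM in Hep3B-C, and at 396 CPM in Huh7 and 304 CPM in Huh7-C. Hep3B-C was the lowest of the 4 libraries and Hep3B the highest, and no neighbouring intervals overlapped. TFRC fell 6.50-fold in Hep3B-C (log2 fold-change -2.70, SE 0.074, FDR 1e-300). The log2 fold-change in Huh7-C was -0.38 (SE 0.052, FDR 2.9e-12), which did not reach the fold threshold. In the Hep3B pair the fold-change of all genes moved with GC content and transcript length, and genes with the GC content (41.5%) and length of TFRC had a trend of -1.97. With that trend taken off, TFRC stood at -0.74 and was not called.

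TFR2, an iron sensor of hepatocytes that also binds transferrin (Entrez 7036, chr7:100620416-100642779, minus strand), had 54 counts in Hep3B against 247 in Hep3B-C, and 21 counts in Huh7 against 0 in Huh7-C. These were 18.6, 53.2 and 4.63 CPM, and 0 of 4333808 counts in Huh7-C allows up to 0.692 CPM. TFR2 was up-regulated 2.83-fold in Hep3B-C (log2 fold-change 1.503, SE 0.22, FDR 8.3e-14) and at least 6.69-fold lower in Huh7-C against the floor of 3 counts (FDR 5.5e-06). Of the 9 iron genes in both pairs, only TFR2 was called in opposite directions, as were 2.45% of all genes in both. In Hep3B-C its trend by GC content (61.7%) and length was 0.74, and the fold-change without it was 0.76 on the log2 scale, which was not called.

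Per length, as RPKM (CPM divided by gene length), the ratio of TFRC to TFR2 was 19.8 in Hep3B (95% interval 15.1 to 26.4) and 1.06 in Hep3B-C (0.912 to 1.25). It was 47.3 in Huh7 (30.8 to 76.6), and no ratio could be formed in Huh7-C. The receptors were thus near equal in level in Hep3B-C, and TFRC was far above TFR2 in both HCC lines. From Hep3B to Hep3B-C the ratio fell 18.4-fold, and 2.83-fold with GC and length trends removed.

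**Figure D2:**
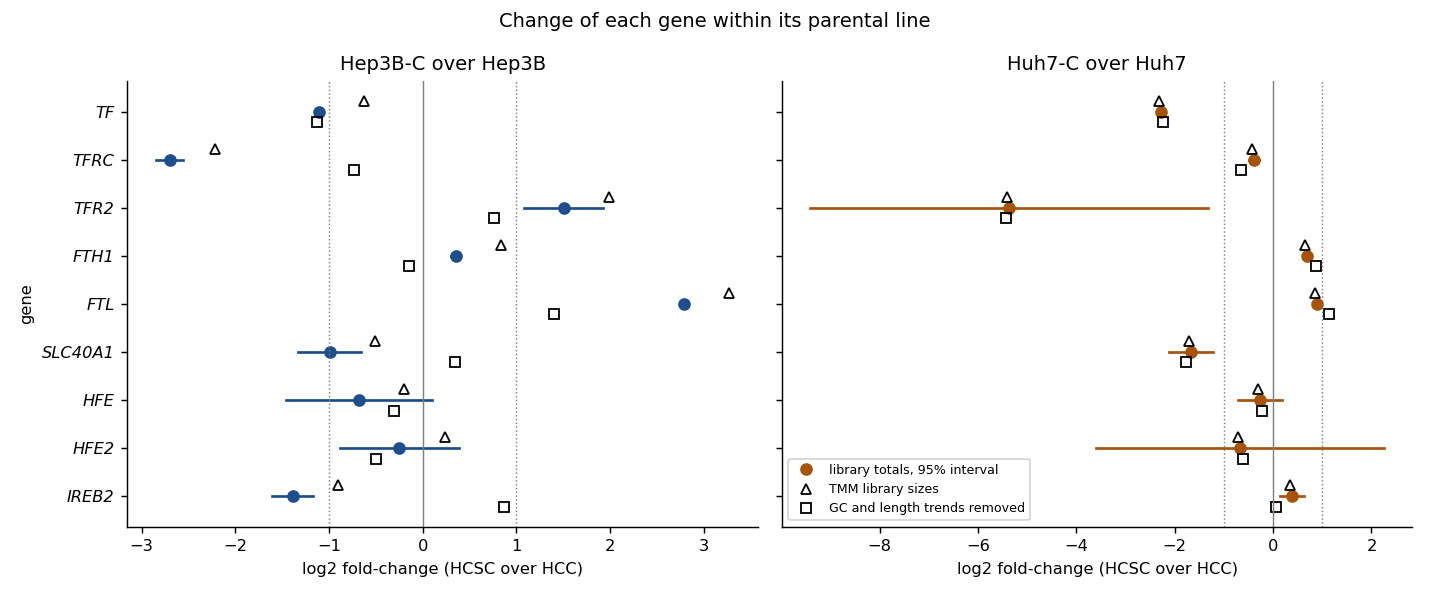
Log2 fold-change (HCSC/HCC) of the iron genes in the Hep3B pair (left) and the Huh7 pair (right), with filled points and 95% counting intervals from library totals, triangles with TMM library sizes and squares with GC and length trends removed. The dotted lines mark a log2 fold-change of 1 in either direction. TF is left of 0 in both panels in all 3 versions, and IREB2, SLC40A1, FTH1 and HFE2 change side in the left panel.

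The ferritin light chain showed the largest rise in Hep3B-C among the 10 genes. FTL, which helps to lay down the iron core (Entrez 2512, chr19:48965301-48966878, plus strand), stood at 2207 CPM in Hep3B and 15239 CPM in Hep3B-C, where it took 1.52% of all counts and ranked 4 by count. It stood at 3010 CPM in Huh7 and 5578 CPM in Huh7-C. Both HCSC libraries were above both HCC libraries, with no overlap between intervals, and how many of all genes separate this way was not counted. FTL rose 6.91-fold in Hep3B-C (log2 fold-change 2.79, SE 0.019, FDR 1e-300). For Huh7-C the log2 fold-change was 0.89 (SE 0.015, FDR 1e-300), under the fold threshold, and with the length trend removed it was called at 1.125. Its trend in the Hep3B pair was 1.39 at a GC content of 56.3%, and without it FTL was still called, at 1.40.

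FTH1, the chain that oxidizes iron for storage (Entrez 2495, chr11:61959718-61967660, minus strand), stood at 1909 CPM in Hep3B against 2438 CPM in its HCSC line, and at 2154 CPM in Huh7 against 3451 CPM in Huh7-C. The lowest and the highest library were 1909 and 3451 CPM, a narrower spread than that of TF or FTL, the other abundant iron genes. Its log2 fold-changes were 0.35 (SE 0.024) in the Hep3B pair and 0.68 (SE 0.019) in the Huh7 pair, both past the FDR but under the fold threshold. In the Hep3B pair the sign turned with the length trend removed (-0.13) or with GC and length trends removed (-0.15).

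The ratio of FTL to FTH1 in RPKM was 1.63 in Hep3B (95% interval 1.57 to 1.69) and 8.82 in its HCSC line (8.65 to 8.999). It was 1.97 in Huh7 (1.92 to 2.02) and 2.28 in Huh7-C (2.23 to 2.33). The light chain was thus above the heavy chain per length in all 4 libraries, by most in Hep3B-C. The ratio of TFRC to FTH1 was 0.0823 in Hep3B and 0.00990 in Hep3B-C, and 0.0432 in Huh7 and 0.0207 in Huh7-C. In each pair the HCSC library had the lower ratio of receptor to storage mRNA, with no overlap of intervals. The ratio was 8.31-fold lower in Hep3B-C and 2.09-fold lower in Huh7-C, and with GC and length trends removed from each gene 1.5-fold and 2.87-fold lower. The ratio of FTL to FTH1 was 5.41-fold higher in Hep3B-C, and 2.93-fold higher with the trends removed. GENCODE 29 names 25 pseudogenes of FTH1 and 16 of FTL, and how reads shared with them were counted is not given in the sources used here, so that the ferritin counts are uncertain to that extent. The copies listed by name in both pairs held few reads, at most 6 for FTH1P3 and at most 1 for FTLP10 in any library.

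**Figure D3:**
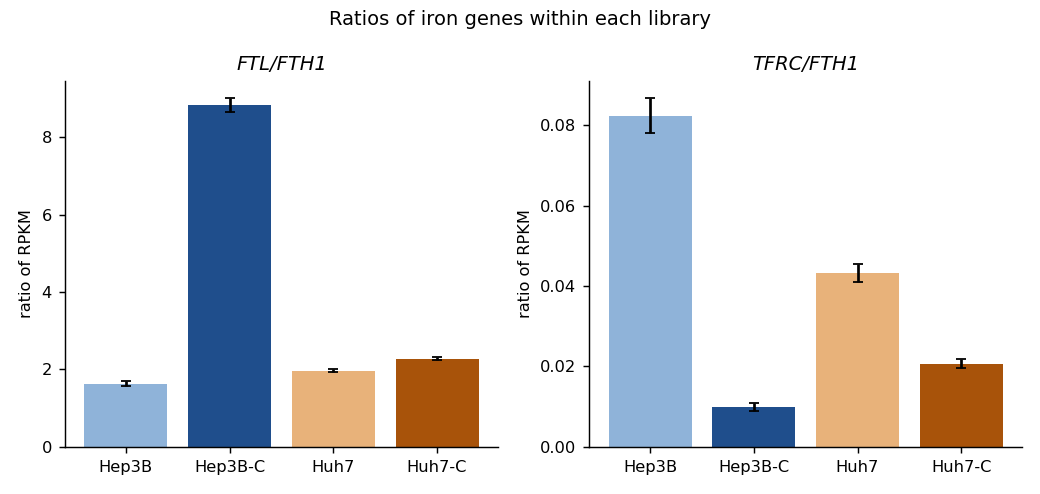
Ratios of RPKM within each library for FTL over FTH1 (left) and TFRC over FTH1 (right), with bars starting at 0 and error bars for 95% counting intervals. Hep3B-C has the highest FTL/FTH1 ratio, 8.82, and the lowest TFRC/FTH1 ratio, 0.00990.

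SLC40A1, the exporter (Entrez 30061, chr2:189560579-189583758, minus strand), had 158 counts (54.5 CPM) in Hep3B and 127 counts (27.4 CPM) in Hep3B-C. It had 174 counts (38.4 CPM) in Huh7 and 52 counts (12 CPM) in Huh7-C. Both HCSC libraries were below both HCC libraries on library totals, and how many of all genes separate this way was not counted. The upper limit of Hep3B-C (32.55 CPM) lay just under the lower limit of Huh7 (32.86 CPM). SLC40A1 fell 3.17-fold in Huh7-C (log2 fold-change -1.67, SE 0.23, FDR 2.4e-14). In Hep3B-C the log2 fold-change was -0.99 (SE 0.17, FDR 1.8e-08), just under the fold threshold, and -0.51 with TMM. Its trend there was -1.34 at a GC content of 42.4%, and without it the value was 0.34, of the other sign.

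HAMP, the gene of the hormone that ferroportin answers to (Entrez 57817, chr19:35280716-35285143, plus strand), had 0 counts in Huh7 and 1 count in Huh7-C. The 0 allows up to 0.661 CPM in Huh7. No difference was detectable at this depth, and HAMP was not analysed in the Hep3B pair.

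HFE and hemojuvelin, which act upstream of hepcidin, were low and not called in either pair. HFE (Entrez 3077, chr6:26087281-26098343, plus strand) had 26 counts in Hep3B and 26 in Hep3B-C, and 88 in Huh7 and 70 in Huh7-C. These were 8.98, 5.601, 19.4 and 16.15 CPM, and in the order of levels the intervals of all neighbours overlapped. The interval of Huh7 (15.55 to 23.89) still lay above those of Hep3B (5.86 to 13.15) and Hep3B-C (3.66 to 8.21). That of Huh7-C (12.59 to 20.41) lay above that of Hep3B-C. The log2 fold-changes of HFE were -0.68 (SE 0.40, FDR 0.12) and -0.26 (SE 0.23, FDR 0.45). HFE2 (Entrez 148738, named HJV in GENCODE 29, chr1:146017468-146036746, minus strand) had 34 counts in Hep3B and 46 in Hep3B-C, but 2 in Huh7 and 1 in Huh7-C. It stood at 11.7 and 9.91 CPM in the Hep3B lines, above 0.441 and 0.231 CPM in the Huh7 lines with no overlap between intervals, and within each line the intervals overlapped. The log2 fold-change in the Hep3B pair was -0.25 (SE 0.32, FDR 0.51), and its sign turned with TMM (0.23).

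IREB2, the iron regulatory protein that is itself degraded when iron is plentiful (Entrez 3658, chr15:78437431-78501456, plus strand), was found at 151 CPM in Hep3B against 57.7 CPM in Hep3B-C, and at 55.5 CPM in Huh7 against 72.7 CPM in Huh7-C. Hep3B stood above the other 3 libraries, and the intervals of Huh7-C and Hep3B-C and of Hep3B-C and Huh7 overlapped. IREB2 fell 2.62-fold in Hep3B-C (log2 fold-change -1.39, SE 0.11, FDR 7.8e-36). The value in Huh7-C stood at 0.39 (SE 0.12, FDR 0.0062), under the fold threshold. The call in Hep3B-C was lost with TMM (-0.905). The trend of genes with its GC content (38.3%) and length was -2.26, and without it the value was 0.87.

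GC content and length moved with the results of the Hep3B pair, and their part in each was not tested. Across 11338 genes with at least 20 counts in that pair, Spearman's rho of the log2 fold-change was 0.63 with GC content and -0.43 with length. Across 11060 genes of the Huh7 pair it was -0.06 and 0.315. These are descriptions across genes, which are not independent replicates. In the Hep3B pair TFRC, SLC40A1 and IREB2, with 38.3% to 42.4% GC, lay in the part of the trend below 0, and FTL and TFR2, with 56.3% and 61.7%, in the part above 0. TF, with 51.2%, had a trend of 0.02, but no transcript close to its length was at hand for the GC content.

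**Figure D4:**
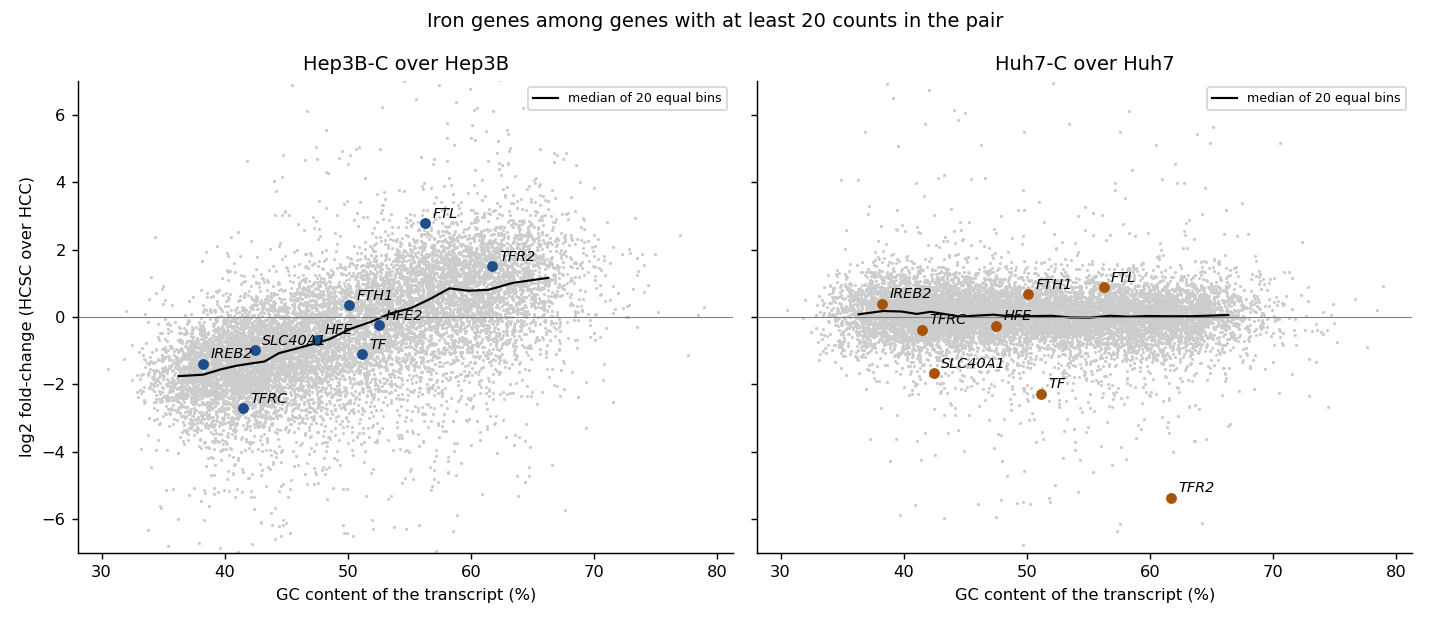
Log2 fold-change (HCSC/HCC) against GC content of the transcript (%) for genes with at least 20 counts in the pair (grey), with the iron genes named and a line for the median of 20 equal bins, in the Hep3B pair (left) and the Huh7 pair (right). Where no transcript was close in length, GC content was mostly that of the coding sequence. The line rises with GC content in the left panel and is nearly flat in the right one, where TF, TFR2 and SLC40A1 lie far below it.

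HCSC were also compared with HCC over both lines, with edgeR's quasi-likelihood test and the parental line as a block, which leaves 1 residual degree of freedom. Of 11691 genes tested, 9 were called at an FDR of 0.05 (0.077%), and 0 of the 9 iron genes tested were among them. At an unadjusted p under 0.05 there was 1 iron gene with edgeR, FTL, with a log2 fold-change of 2.01 and an adjusted p of 1.0. Over all genes 372 of 11691 had such a p. FTL was higher in the HCSC of both lines. DESeq2 called 0 iron genes as well, and had 2 with an unadjusted p under 0.05, FTL and TF, beside 432 of 16370 genes. TF stood at -1.52 with edgeR, with an adjusted p of 1.0, and was lower in the HCSC of both lines. In a fit without the Hep3B library, which drops the block, the log2 fold-change of TF was 0.395. TFRC stood at -1.37, SLC40A1 at -1.16, FTH1 at 0.69, TFR2 at -0.50, IREB2 at -0.33, HFE at -0.30 and HFE2 at -0.12.

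Whether the change differed between the parental lines was tested with Fisher's exact test, with library totals as offsets and an FDR over 13917 genes. By this test 40.3% of all genes differed by at least 1 on the log2 scale, and 5 of 9 iron genes did. For TFR2 the log2 fold-change in the Hep3B pair minus that in the Huh7 pair was 6.86 (95% interval 2.795 to 10.93, FDR 5.2e-11). This fitted value depends on the 0.5 added to the count of 0. With the floor of 3 counts in Huh7-C the difference was 4.24, counting error left out. For TFRC it was -2.32 (SE 0.090), for FTL 1.90 (SE 0.024), for IREB2 -1.78 (SE 0.165) and for TF 1.17 (SE 0.045). The test covers counting error only. With GC and length trends removed from each pair, the difference of TFRC was -0.08, that of FTL 0.27 and that of IREB2 0.81, while TF kept 1.12. SLC40A1 differed by 0.67 (95% interval 0.11 to 1.23, FDR 0.032) and was not called. With TMM it was called, at 1.197 (FDR 6.6e-05), which made 6 iron genes, and with the trends removed its difference was 2.11 and that of FTH1 -1.01. FTH1 (-0.33), HFE (-0.42) and HFE2 (0.42) were not called either, and the interval of HFE ran from -1.32 to 0.48.

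Other genes of iron handling were taken from lists of hepcidin control, transport, ferritin turnover, iron regulation, heme synthesis and iron-sulfur cluster assembly. Apart from the 10 genes, 99 were listed in the Hep3B pair, of which 18 (18.2%) were up- and 31 (31.3%) down-regulated, against 13.2% and 30.4% of all genes, so that the share that fell was near the background. In the Huh7 pair 102 were listed, of which 4 (3.92%) were up- and 9 (8.82%) down-regulated, against 4.19% and 4.15% of all genes. Of these genes 4 (ID1, ID2, FLVCR2 and ALAD) fell in both pairs and 0 rose in both, while of all 13917 genes in both pairs 1.49% fell and 0.568% rose in both. ALAD lost its call in the Hep3B pair with TMM (-0.54) and with the trends removed (-0.82), and FLVCR2 with the trends removed (-1.05).

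Of the genes listed for BMP and SMAD control of hepcidin, 12 of 22 were down-regulated and 0 up-regulated in Hep3B-C. Over all genes 30.4% were down- and 13.2% up-regulated. The list's median log2 fold-change was -1.94, against -0.60 over all genes. The list was not split by whether a gene raises or lowers hepcidin. With GC and length trends removed, 9 were down- and 2 up-regulated (NEO1 and SMAD1) and the median was -0.997. BMPR1A, BMPR2, ACVR1, ACVR2A, SMAD4 and SMAD5 then lost their calls, while BMP2, SMAD7, ID1, ID2, ID3 and ATOH8 kept theirs. TMPRSS6, BAMBI and GDF15 were called down in Hep3B-C only with the trends removed. In Huh7-C 3 of 21 were up-regulated and 3 down-regulated, against 4.19% and 4.15% of all genes. ID1, a direct SMAD target, had 230 counts in Hep3B and 4 in Hep3B-C (log2 fold-change -6.36), and 835 in Huh7 and 336 in Huh7-C (-1.25). ID2, from the same family, had 966 and 86 counts (-4.16), and 422 and 93 counts (-2.11). ID1 and ID2 were thus lower in the HCSC of both lines, and with GC and length trends removed they stayed called, ID1 at -7.81 and -1.07 and ID2 at -3.995 and -1.95. FURIN, a protease that cleaves hemojuvelin and pro-hepcidin, fell in Huh7-C from 2675 to 594 counts (-2.10) and had 832 and 910 counts in the Hep3B pair. BMP4, a ligand, and NEO1, which binds hemojuvelin, rose in Huh7-C (1.14 and 1.48), as did GDF15, a secreted stress factor named after its values were seen, from 714 to 1412 counts (1.05).

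Of 9 genes of the interleukin 6 and STAT3 route to HAMP, 3 fell in Hep3B-C and 2 in Huh7-C, and none of the 9 rose in either. Over all genes the shares down and up were 30.4% and 13.2% for Hep3B-C, against 4.15% and 4.19% for Huh7-C, so that the count in Hep3B-C was near the background. In Hep3B-C these included the receptor subunit IL6ST (-1.95) and the kinase JAK1 (-1.27), and with GC and length trends removed 0 of the 9 were called in that pair. In Huh7-C they were SOCS3, a feedback inhibitor, from 61 to 11 counts (-2.35), and CEBPA, a hepatocyte transcription factor, from 462 to 154 counts (-1.52).

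Among 20 other transport genes in the Hep3B pair, 5 rose and 6 fell, against 13.2% and 30.4% of all genes. The count that fell was thus near the background. CP (ceruloplasmin), which oxidizes iron for loading onto transferrin, fell from 3959 to 245 counts (-4.69), and the iron importer SLC11A2 from 315 to 114 (-2.14, and -0.59 with the trends removed, not called). LCN2, which binds iron-carrying siderophores, rose from 21 to 476 counts (3.79), and MON1A, linked to ferroportin traffic, from 12 to 99 (2.31). In the Huh7 pair 1 of 23 rose, the ceruloplasmin relative HEPH, from 11 to 98 counts (3.165), and 2 fell. Over all genes of that pair 4.19% were up- and 4.15% down-regulated, so that the count that rose was near the background. FLVCR2, a transporter first linked to heme, fell in both pairs, from 35 to 17 and from 35 to 6 counts. HPX, which carries heme in plasma, was the gene called in opposite directions, as were 2.45% of all genes in both pairs, with 50 and 335 counts in the Hep3B pair and 32 and 4 in the Huh7 pair. It was chosen after its values were seen.

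In ferritin turnover and heme breakdown, 3 of 8 genes rose and 1 fell in Hep3B-C, against 13.2% and 30.4% of all genes. NCOA4, the receptor that delivers ferritin to lysosomes, had 1294 and 924 counts in the Hep3B pair (-1.17, called) and 1754 and 838 in the Huh7 pair (-0.999, just under the threshold). Its call in the Hep3B pair was lost with TMM (-0.68) and its sign turned with the trends removed (0.25), and in the Huh7 pair it was called with either (-1.04 and -1.12). HMOX2, a heme oxygenase, and BLVRB, a biliverdin reductase, rose in Hep3B-C (1.47 and 1.52). With the trends removed neither was called, HMOX2 at 0.48 and BLVRB at -0.26, and the list went from 3 up to 1 up. The chaperone relative PCBP3 fell in Huh7-C from 71 to 14 counts (-2.24). Of 5 genes of the iron regulatory proteins and their degradation, IREB2 among them, 4 fell in Hep3B-C and 0 were called in Huh7-C. FBXL5, the iron-sensing subunit that marks IREB2 for degradation, had 183 and 92 counts in the Hep3B pair (-1.67, and -0.19 with the trends removed). After removal of the GC and length trends 0 of the 5 were down-regulated in Hep3B-C and 1 was up-regulated, ACO1 (1.88), the other iron regulatory protein. ACO1 was named after its values were seen.

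Of 9 mRNAs with a known iron-responsive element, 2 rose and 4 fell in Hep3B-C, and 0 rose and 1 fell in Huh7-C. Over all genes the shares up and down were 13.2% and 30.4% for Hep3B-C, and 4.19% and 4.15% for Huh7-C. The list's median in Hep3B-C was -1.20, against -0.60 over all genes. FTH1, FTL, SLC40A1 and TFRC, described above, are among the 9. FTL was among those that rose. Beside TFRC and SLC11A2, CDC42BPA, a kinase with a reported 3′ element, fell in Hep3B-C from 324 to 117 counts (-2.15, and 0.29 with the trends removed). The pattern search described above found a site in 6 of the 9 mRNAs, and none in CDC42BPA, SLC11A2 or EPAS1. With the GC and length trends removed 1 of the 9 was called up, FTL, and 0 down in that pair.

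In heme synthesis 3 of 8 genes rose in Hep3B-C, UROD at 2.21 among them, and 2 fell, CPOX at -1.12 and ALAD at -1.025. With TMM 0 of the 8 were called down in that pair, CPOX standing at -0.63, and with the trends removed CPOX stood at -0.43 and was not called. ALAD, the second enzyme of the route, was the only one of the 8 called in Huh7-C, from 213 to 79 counts (-1.36). In iron-sulfur cluster assembly 6 of 24 genes rose and 2 fell in Hep3B-C, and 0 of 24 were called in Huh7-C. The shares of all genes were 13.2% up and 30.4% down in Hep3B-C, with 4.19% and 4.15% for Huh7-C. NUBP2, a scaffold of cytosolic assembly, had 33 and 586 counts (3.45) and FDXR, which passes electrons to ferredoxin, 14 and 115 (2.31, and 0.96 with the trends removed, not called). ISCA1 (-1.95), which helps to build mitochondrial clusters, was among those that fell.

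**Figure D5:**
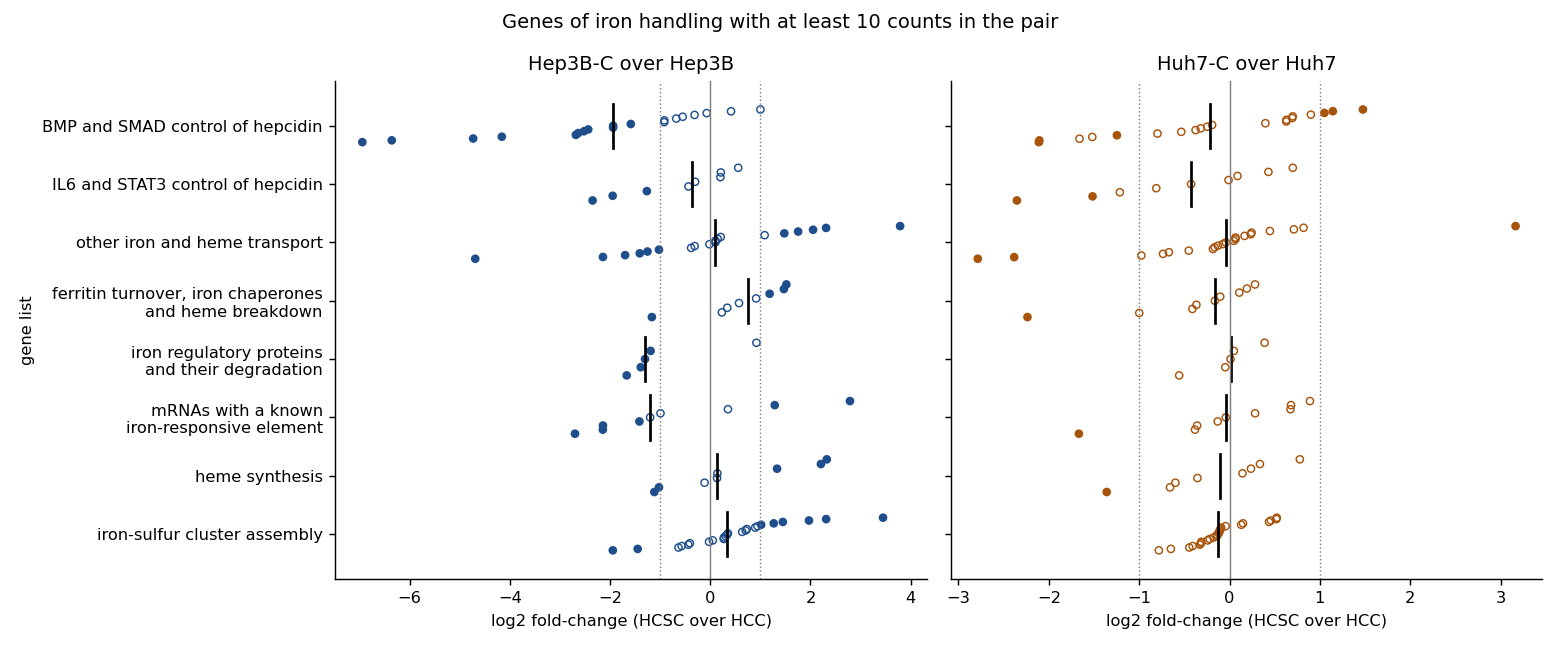
Log2 fold-change (HCSC/HCC) of each gene of the iron lists with at least 10 counts in the pair, with filled points for called genes, open points for genes not called and a black bar for the list's median, in the Hep3B pair (left) and the Huh7 pair (right). The BMP and SMAD list has a median of -1.94 in the left panel with 0 genes called up, and the iron-sulfur list has no filled point in the right panel.

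The cultures were checked against hepatocyte markers, since TF, TFR2, HAMP and HFE2 are active in liver cells. All 11 markers, ALB and HNF4A among them, had counts in all 4 libraries. Their summed level was 55819 CPM in Hep3B and 80210 CPM in Hep3B-C, with 6 up- and 1 down-regulated, and 52654 CPM in Huh7 and 27327 CPM in Huh7-C, with 1 up- and 6 down-regulated. TF fell with the summed markers in the Huh7 pair and against them in the Hep3B pair. TFR2 moved with the summed markers in both pairs. The part of hepatocyte genes in these results was not tested, and in bulk samples fewer cells of a type and less RNA per cell cannot be told apart. Of the other lists, the erythroid list summed to at most 4.615 CPM in any library, the endothelial list to at most 21.5 CPM and the fibroblast list to at most 45.2 CPM. The leukocyte list summed to 186 to 451 CPM, from CD68 and LYZ.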

How the data were processed

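Total RNA of each cell line gave 1 library, read on an Illumina Genome Analyzer II instrument. Per the study's methods the authors filtered out adapters and reads of low quality, aligned the rest with NextGENe to an NCBI human genome build older than GRCh38 and counted reads per transcript. The deposited values were whole-number counts per gene, not normalized, with Entrez ID, symbol and length. The software version, the gene models and the handling of reads that match more than 1 place are not given in the sources used here. Genes were joined by Entrez ID.

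Counts were used as deposited. CPM and RPKM were computed from total gene counts and the files' gene length, with 95% exact Poisson intervals. Each pair was tested with the Audic-Claverie test (tail doubled, Benjamini-Hochberg over all genes of the pair, smallest FDR kept 1e-300). All 4 samples were fitted with edgeR 4.0.16 (quasi-likelihood, TMM, filterByExpr, parental line as block, FDR 0.05), with genes listed in 1 pair taken as 0 in the other, which concerns HAMP. The block comes from the labels, and deviations from the group means of the libraries of a parental line had a Pearson correlation of 0.53 across 14131 genes. The difference between pairs was tested with Fisher's exact test with library-total offsets.

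The alternatives tried were TMM, size factors from DESeq2 1.42.0, lowess trends of length or of GC content and length removed (span 0.3), 5 in place of 0.5 added, an exact binomial test, an assumed biological coefficient of variation of 0.4, a minimum of 10 counts, no block, no filter and samples left out. GC content came from GENCODE 29 (GRCh38), whose coordinates are not those of the authors' alignment. Genes such as TF had no transcript close in length. For these GC content was taken over the longest coding sequence (1143 genes) or the closest transcript (91 genes). No test of gene lists was made. All 10 genes are named. From the other lists, genes called alike in both pairs were named, and per list and pair up to 2 up- and 2 down-regulated genes of largest change with at least 50 counts in 1 library; some of these are not reported here. The genes and lists were chosen with earlier results of these data known. Scripts were tested on simulated data. Python 3.11.15, scipy 1.17.1 and R 4.3.3 were used. Since replicates were from different lines, p-values of the joint fit measure the spread between these samples only.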

Additional observations from a re-analysis of the deposited data

Results flagged for a closer look

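The change of 5 iron genes differed between the parental lines by the exact test of the difference itself, which covers counting error of 4 libraries. The values are log2 fold-changes (HCSC/HCC) in the Hep3B pair minus those in the Huh7 pair. TF had a difference of 1.17, with a fall in both pairs that was larger in Huh7-C. TFRC had a difference of -2.32, with a call in Hep3B-C and none in Huh7-C. TFR2 had a difference of 6.86, a fitted value with 0 counts in Huh7-C, and of 4.24 with the floor of 3 counts, counting error left out. Its calls were opposite, and that in Hep3B-C was lost with GC and length trends removed (0.76). FTL had a difference of 1.90, with a call in Hep3B-C and a value under the fold threshold in Huh7-C. IREB2 had a difference of -1.78, with a call in Hep3B-C and none in Huh7-C. Of all genes tested in both pairs, 40.3% met the same thresholds. With GC and length trends removed from each pair the difference of TFRC was -0.08, that of FTL 0.27 and that of IREB2 0.81, of the other sign, while that of TF was 1.12.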

How the results depend on the processing

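Iron genes called up in the Hep3B pair went from 2 to 1 with GC and length trends removed and to 0 at an assumed variation of 0.4. Those called down went from 3 to 1 with TMM, DESeq2 size factors, the length trend removed or both trends removed, and to 0 at a variation of 0.4. In the Huh7 pair those called up went from 0 to 1 with the length trend or both trends removed, and those called down from 3 to 0 at a variation of 0.4. In the Hep3B pair the sign turned for FTH1 (-0.13 without the length trend, -0.15 without both), SLC40A1 (0.34 without both), IREB2 (0.87 without both) and HFE2 (0.23 with TMM, 0.28 with DESeq2 size factors). The difference between pairs turned for FTH1 (0.197) and HFE (0.11) with TMM and for IREB2 (0.81) without both trends, and the genes called as different went from 5 to 6 with TMM, which added SLC40A1 (1.197). In the Huh7 pair, with TMM, DESeq2 size factors, either trend removal or 5 added to each count, all 40 values of the 8 genes with at least 10 counts kept their direction, and 38 of them stayed called or not called as before. IREB2 in that pair passed the FDR alone (0.0062) but not with TMM (0.017), DESeq2 size factors (0.029), the length trend removed (0.95) or both removed (0.82). The causes were not tested.

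Over both lines 0 iron genes were called by edgeR with the parental line as a block and 0 without this block, where the calls over all genes went from 9 to 0. Without the block TFR2 stood at 1.54 and HFE2 at 0.12. IREB2 stood at 0.62 without both trends. With 1 sample left out, in fits without the block that assume the lone sample varies like the other group, TF ran from -3.62 to 0.395, TFR2 from -8.40 to 2.68, HFE from -1.12 to 0.555, HFE2 from -4.34 to 3.60 and IREB2 from -0.90 to 0.28. With 1 library per line, depth bounds TFR2, HAMP and HFE2 in the Huh7 pair, where counts were 21 or fewer.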

Other observations

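In the Huh7 pair 4 markers of other cell types were called changed. COL3A1 had 0 counts in Huh7 and 58 in Huh7-C, PECAM1 had 17 and 93, and HBA1 had 1 and 20. PDGFRB had 186 counts in Huh7 and 2 in Huh7-C. In the Hep3B pair 2 were called, CD68 with 289 counts in Hep3B and 1254 in Hep3B-C, and COL1A2 with 6 and 0.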
